A study of Mus musculus with 2 samples.

Results

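The Gapdh locus in the ERRα peak list of C2C12 myotubes comprised 6 windows, out of 3225 windows in the whole list. They were chosen by position alone, as the windows of chromosome 6 whose start lies between 125080000 and 125150000 on the mm9 build of the mouse genome. Of the 6 windows, 5 formed a tight run assigned to Gapdh, and 1 lay apart. Because the members were chosen from the list itself, their presence and their closeness are described here and not tested.

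C2C12 is a mouse myoblast line that forms multinucleated myotubes in low-serum medium. The cells of both libraries were differentiated for 72 h in 2% horse serum and then carried an adenovirus expressing flag-tagged PGC-1α for 48 h, so over-expressed PGC-1α was common to the immunoprecipitate and to its background. Chromatin bound by ERRα was collected with a rabbit monoclonal antibody and sequenced (ChIP-seq, 1 library), and the background was input DNA from whole-cell extract (1 library). With 1 library each there was no replicate check, no library without PGC-1α was analysed here, and the authors' list gives only the position of each window.

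Gapdh encodes glyceraldehyde-3-phosphate dehydrogenase, the glycolytic enzyme that oxidises glyceraldehyde-3-phosphate and reduces NAD+. Its mRNA is abundant in skeletal muscle and is widely used as a reference transcript. ERRα, encoded by Esrra, is an orphan nuclear receptor. It binds the ERR response element, TCAAGGTCA, and is known above all for its targets in mitochondrial respiration and fatty acid oxidation. PGC-1α is a coactivator that works through it.

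The Gapdh promoter is shown because the run was assigned to Gapdh, which was taken as given. The letters of the promoter are also a readout that the choice of windows did not use. RefSeq's promoter table (GRCm38.p6) holds 1 entry for Gapdh, on the minus strand, although the gene has 3 RefSeq transcripts. Its 250 bases before the transcription start, at chr6:125165774-125166023 of GRCm38.p6, read as follows, 5′ to 3′, with capitals on the 2 stretches that come closest to the ERR response element. The start of the entry lies 694 bp inside the gene model, so the bases shown lie inside it too. Sequence before the outermost start of the gene was not searched. Positions on GRCm38.p6 and on mm9 were not converted into each other, so whether any window covers these bases was not analysed here.
Gapdh: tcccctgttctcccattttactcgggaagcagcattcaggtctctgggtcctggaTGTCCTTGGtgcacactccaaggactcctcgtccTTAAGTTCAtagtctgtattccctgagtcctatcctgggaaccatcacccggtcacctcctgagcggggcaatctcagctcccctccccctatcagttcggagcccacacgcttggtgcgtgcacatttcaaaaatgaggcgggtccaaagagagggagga

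The run at Gapdh reached from 125111126 to 125116050 on chromosome 6 (mm9), a span of 4925 bp. RefSeq gives Gapdh a length of 4616 bp on GRCm38.p6, or 3922 bp from the start of the promoter entry to the end of the gene, so the run was 309 bp longer than the whole gene model. Gapdh is a short gene: 21.7% of the 21900 protein-coding genes in the table are shorter, and the median is 17.1 kb. Similar lengths do not place the windows in the gene, and a run longer than the gene model would not fit wholly inside it. No mm9 annotation was used here, so the assignment of the run to Gapdh was taken as given, and whether a window lies in an exon, an intron or a UTR was not analysed here.

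Gapdh is read from the minus strand, so under this assignment the window with the lowest position lies toward the end of the gene and the window with the highest position lies toward the promoter. The first window from the 3′ side was at chr6:125111126-125111325. The second was at chr6:125112501-125112700, and 1175 bp without a window separated it from the first. Then came the longest empty stretch of the run, 1625 bp, which took up 33.0% of its length.

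Beyond this stretch the windows followed each other more closely. The third window was at chr6:125114326-125114525, the fourth at chr6:125115076-125115275 after 550 bp, and the fifth, nearest the promoter side, at chr6:125115851-125116050 after 575 bp. These 3 windows occupied 1725 bp, or 35.0% of the run, and covered 34.8% of that stretch. The 2 windows on the 3′ side occupied 1575 bp and covered 25.4% of it. The 2 stretches were cut at the run's own longest gap and hold 3 windows against 2, so their covered shares only describe this cut. Of the window centres, 3 lay above the middle of the run and 2 below. This split is close to even and does not show a denser side. Over the whole length of the run 1000 bp were covered, or 20.3%, and 3925 bp were not.

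**Figure D1:**
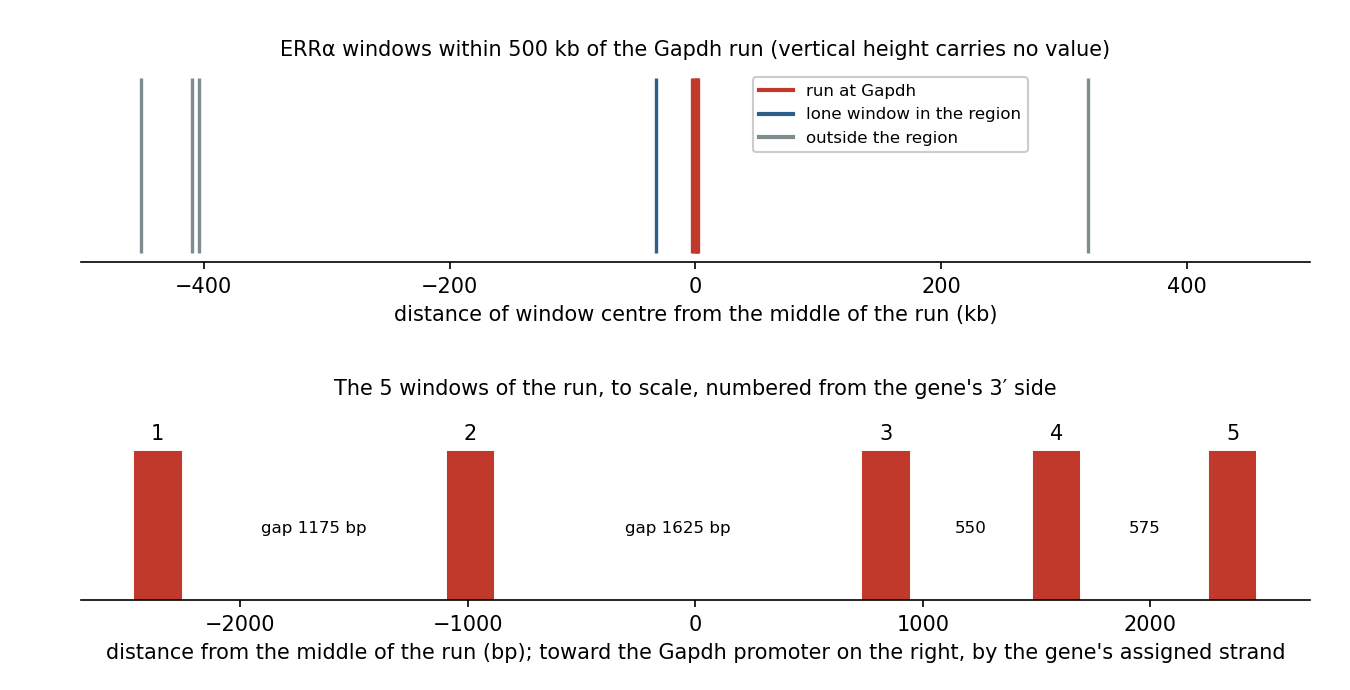
Top, positions of ERRα windows within 500 kb of the run at Gapdh, as distance of the window centre from the middle of the run in kb; each line is 1 window and its height carries no value. Bottom, the 5 windows of the run drawn to scale in bp, with the lengths of the gaps between them: gaps of 550 and 575 bp separate the 3 windows on the right, against 1175 and 1625 bp on the left.

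Distances between neighbouring window starts in the run were 1375, 1825, 750 and 775 bp, with a median of 1075 bp. The longest was 2.43 times the shortest. In the list as a whole, 526 neighbouring starts lay at most 10 kb apart, with a median distance of 1525 bp. Of these, 22.8% were as short as the shortest step at Gapdh and 57.6% were as short as its longest. The steps at Gapdh are among these 526, because the run was joined at 10 kb, so lying within their range was fixed in advance. That range includes the steps inside long runs, the longest with 74 windows on chromosome 8, and was not divided by run.

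Each window of the run had its nearest neighbour at 750, 775 or 1375 bp. In the whole list, 6.82% of windows had a neighbour within 750 bp and 12.9% had one within 1375 bp. All windows were 200 bp wide and began at multiples of 25 bp, so distances are resolved to 25 bp and the width carries no information on how far signal extended around any of them. The list gives no height, enrichment or input coverage, so the 5 windows cannot be ordered by strength. Several adjoining sites therefore cannot be told from 1 broad stretch of signal reported in pieces. Whether the run reflects ERRα bound at DNA sites or signal over a heavily transcribed gene was not tested.

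The sixth window of the region stood alone at chr6:125081876-125082075. Its start lay 29.25 kb below the first window of the run, on the 3′ side of Gapdh, and only 1.875 kb inside the lower limit of the region. Just outside the limits, the next window below was at chr6:124709426-124709625, 370.6 kb from the lower limit, and the next above was at chr6:125433401-125433600, 283.4 kb from the upper limit. No window was listed for 317.35 kb beyond the promoter side of the run. Within 500 kb of the middle of the run there were 10 windows, of which 4 were outside the region; 2 of those, at 124704051 and 124709426, were 5375 bp apart.

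In RefSeq's gene order on GRCm38.p6, the protein-coding genes next to Gapdh on the side of its 3′ end are Iffo1, an intermediate filament family gene, then Nop2, which encodes a nucleolar RNA methyltransferase, and Chd4, the chromatin remodeller of the NuRD complex. On the promoter side they are Ncapd2, a condensin subunit, then Mrpl51, a protein of the mitochondrial ribosome, and Vamp1, a synaptic vesicle protein. Gapdh is shorter than 5 of these 6 genes, and only Mrpl51, at 2193 bp, is shorter than Gapdh. Which of them, if any, holds the lone window was not analysed here.

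Chromosome 6 carried 173 windows over 145.0 Mb, or 1.19 per Mb, with a median of 380.7 kb between neighbouring starts. Joining windows whose starts lay at most 10 kb apart gave 18 runs of 2 or more on this chromosome, with 46 windows in all. The run at Gapdh was the only 1 of them with 5 windows, and 3 others had 4. Those 3 spanned 4725 bp from 18793851, 3075 bp from 94989426 and 10175 bp from 115451076. The 5 windows at Gapdh were 2.89% of the windows of chromosome 6 and 0.155% of the list.

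Across the genome, 14 runs held 5 windows or more, and 4 of them were denser than the run at Gapdh, which had 1.02 windows per kb. The denser runs were on chromosome 18 from 26162526 (6 windows, 1.75 per kb), chromosome 5 from 136099826 (7 windows, 1.42 per kb), chromosome 13 from 21855751 (5 windows, 1.29 per kb) and chromosome 19 from 5845726 (5 windows, 1.28 per kb). The run on chromosome 5 had the same span as the run at Gapdh, 4925 bp, and 2 more windows in it. Among the 6 runs of exactly 5 windows, the run at Gapdh had rank 3. Over all 286 runs of 2 windows or more, 134, or 46.9%, were at least as dense, the run at Gapdh included. A close pair already reaches this density. The rank depended on how runs were drawn: with starts joined at 2 kb, 8 runs of 5 or more windows were at least as dense as the run at Gapdh, itself included. By the most starts within any 5 kb of a run joined at 10 kb, 9 runs reached 5 or more, and the largest number was 7. Without joining, 19 separate stretches of 5 kb held 5 or more starts, of which 9 were on chromosome 8 and 1 was the run at Gapdh. By none of these counts was the run at Gapdh the densest.

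**Figure D2:**
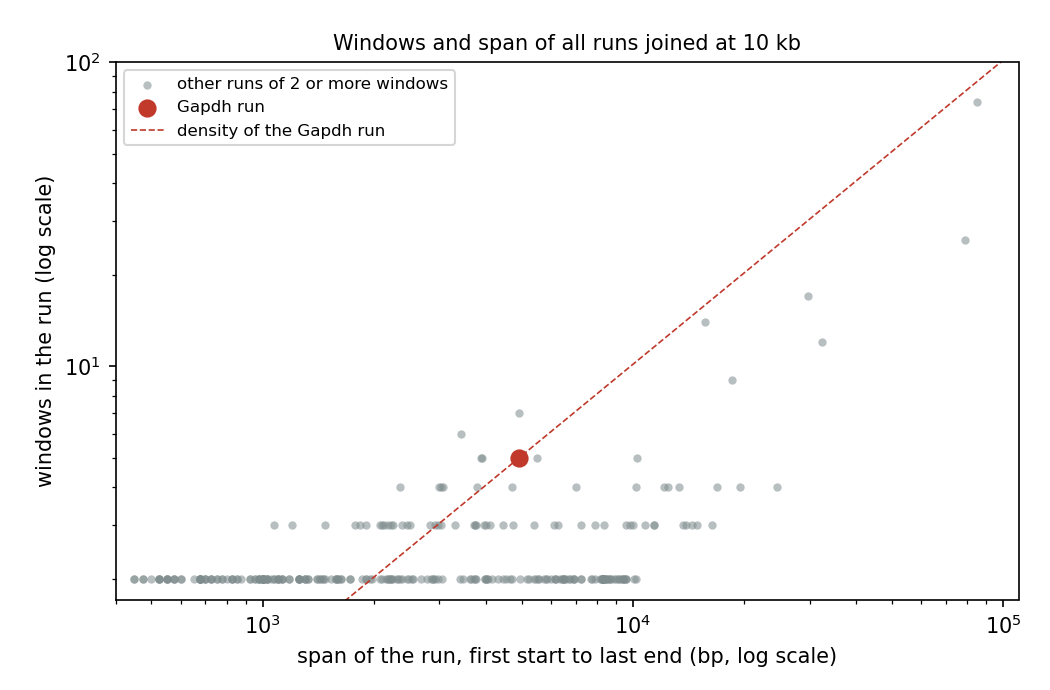
Number of windows (log scale) against span in bp (log scale) for the 286 runs of 2 or more windows, joined at 10 kb. Each point is 1 run, and the dashed line marks the density of the run at Gapdh, 1.02 windows per kb; 4 runs of 5 or more windows lie above it.

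The runs most like it were taken as those of 4 to 6 windows whose span differed least from that of the run at Gapdh, out of 20 others. The nearest was on chromosome 18 from 11801101, with 5 windows in 5000 bp and steps of 1050, 875, 2000 and 875 bp. As at Gapdh, the longest step lay inside the run and not at its edge. This was also so in the runs on chromosomes 6 and 13 described below, and not in those on chromosomes 10 and 19. The next was on chromosome 6 from 18793851, with 4 windows and steps of 950, 2000 and 1575 bp.

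The third, on chromosome 10 from 79609351, had 5 windows in 5500 bp and was the most uneven, with its longest step (2925 bp) 5.85 times its shortest. The fourth, on chromosome 19 from 5845726, had 5 windows in 3900 bp with steps from 400 to 1600 bp. The fifth, on chromosome 13 from 21855751, was the most even, with steps from 775 to 1125 bp, the longest 1.45 times the shortest. At Gapdh this ratio, 2.43, lay between these extremes. These 5 runs carry no gene names here, because no mm9 annotation was used.

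**Figure D3:**
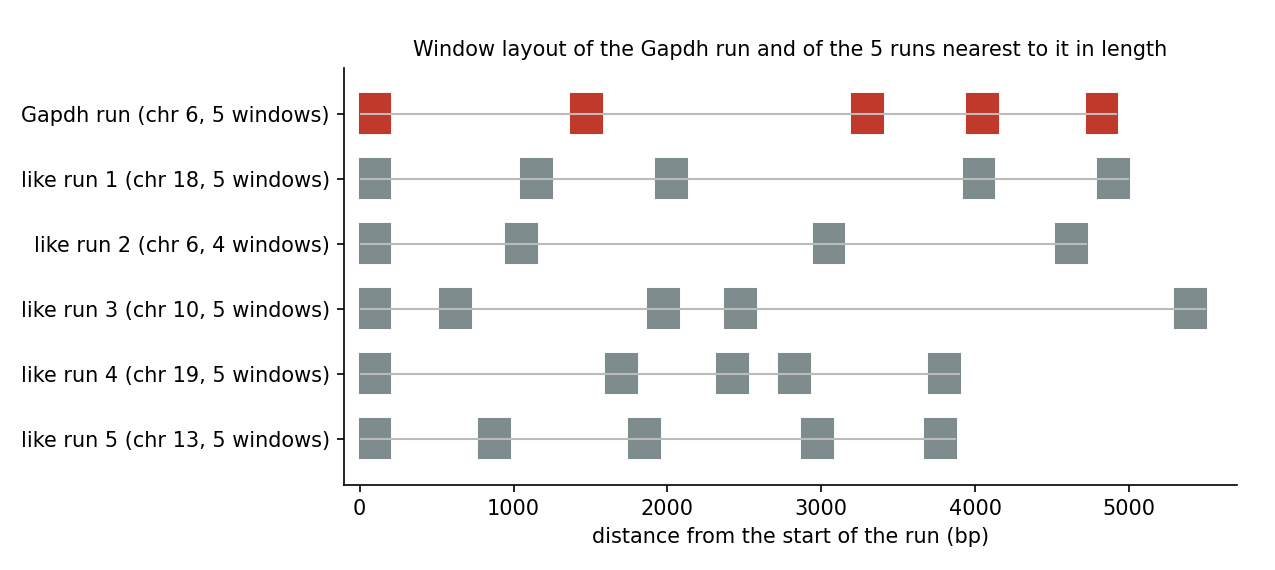
Layout of the windows, as distance in bp from the start of each run, for the run at Gapdh (top) and the 5 runs of 4 to 6 windows nearest to it in span. Blocks are windows of 200 bp to scale; spans run from 3875 to 5500 bp.

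The Gapdh promoter entry, taken over 300 bases from 250 before to 50 after the start, held no ERR response element. This entry starts 694 bp inside the gene model, so the sequence before the gene's outermost start was not covered. Neither TCAAGGTCA nor TNAAGGTCA (N, any base) was found on either strand, and neither was AAGGTCA nor AGGTCA, the shorter forms contained in both. Among all 32851 promoter entries of this length, 0.423% held TCAAGGTCA, 1.28% held TNAAGGTCA, 4.72% held AAGGTCA and 16.3% held AGGTCA; each shorter motif includes the matches of the longer. The closest stretches, the 2 in capitals above, matched 7 of the 9 bases of TCAAGGTCA. TTAAGTTCA begins at position -161 from the start, and TGTCCTTGG, which matches in reverse orientation, begins at -195. A match this close or closer to TCAAGGTCA was found in 53.4% of all entries, so by this measure these stretches are ordinary for sequences of this length. Near matches to TNAAGGTCA, in which the second base of TTAAGTTCA is no mismatch, were not counted. The sequence at the mm9 positions of the windows was not read, so whether these letters lie under a window is not known here.

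SP1, a zinc-finger factor that binds GC boxes, is named in the title of the series. The Gapdh entry held no GC box, searched only as the exact GGGCGG on both strands and in no looser form. A GC box of this form was present in 35.7% of all entries. It was also in all 6 entries of the 5 neighbouring genes with an entry (Chd4, Nop2, Ncapd2, Mrpl51 and Vamp1). Nor did the Gapdh entry hold TATAAA, the core of the TATA box, which was present in 13.6% of all entries. The entry was 56.7% G and C, against a median of 52.7%, and had 12 CG dinucleotides against a median of 7. All entries together belong to 27025 genes, more than the 21900 protein-coding genes. The background of these values and of the motif shares is therefore not limited to protein-coding genes.

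Gapdh was set beside the other glycolytic genes by the same search. The 19 genes listed for glycolysis and lactate production, Gapdh among them, had 31 promoter entries, and some genes had several. None held TCAAGGTCA, which 0.466% of the 27025 genes of the table hold, so a count of 0 in a list of this size tells nothing about the list. TNAAGGTCA was found in 1 of the 19 genes, against 1.43% of all genes. This gene was Tpi1, which encodes triosephosphate isomerase, the enzyme that supplies the substrate of Gapdh. AAGGTCA was found in 2 of 19, against 5.38% of all genes; these were Tpi1 and Eno1, the latter an enolase. AGGTCA was found in 7 of 19, against 18.1% of all genes, and Gapdh was among the 12 without it. The 7 were Aldoa, Eno1, Eno3, Ldhb, Pfkm, Pkm and Tpi1. A GC box was found in 12 of 19, against 38.2% of all genes, and Gapdh was again among those without one. Genes with several entries had more sequence searched, so matches were also counted by entry. TNAAGGTCA was in 1 of the 31 entries (1.28% of all entries) and AAGGTCA in 2 (4.72%). AGGTCA was in 8 of the 31 (16.3% of all entries) and a GC box in 14 (35.7%). None of these counts was tested.

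For comparison, 7 of 9 genes listed as ERR targets had an entry. None held TCAAGGTCA or TNAAGGTCA, which 0.466% and 1.43% of all genes hold. A count of 0 among 7 genes therefore tells nothing about this list. Acadm, the medium-chain acyl-CoA dehydrogenase of fatty acid oxidation, was the only 1 of the 7 with AAGGTCA, and also the only 1 with AGGTCA. Of all genes, 5.38% hold AAGGTCA and 18.1% hold AGGTCA. A GC box was found in 5 of the 7, against 38.2% of all genes. These counts describe short lists of promoter letters and were not tested.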

How the data were processed

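The deposited list was made by the authors from 1 ERRα immunoprecipitate and 1 input library; Bowtie 0.12.7 and mm9 were used per the submitters' processing notes. No label or file header read here names the peak caller, its threshold or the read depth. The list's 3 columns hold chromosome, start and end of each window; positions are printed counted from 1.

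Windows whose starts lay at most 10 kb apart were joined into runs. Spans reach from the first start to the last end, and density is windows per kb of span. No test was made, because the list has neither scores nor replicates and the windows were chosen from it. The members, lists and alternatives were chosen with earlier results of these data known. Named genes were Gapdh, up to 3 protein-coding neighbours a side, and listed glycolytic genes and ERR targets with a match; named runs were the 5 nearest in span, with the denser runs and those of chromosome 6 chosen after their values were seen. Motifs were searched on both strands of RefSeq promoter entries (GRCm38.p6); AGGTCA, the GC box, TATAAA and the base composition were added after the data were seen. Iffo1, Idh3a and Cpt1b had no entry, and 1 further listed gene is not reported here. Joining and motif search were tested on simulated data. Python 3.11.15, numpy 2.4.6, pandas 2.3.3 and matplotlib 3.10.9 were used.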

Additional observations from a re-analysis of the deposited data

How the results depend on the processing

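The number of windows in the run at Gapdh, 5, was also 5 with starts joined at 2 or 25 kb; it was 6 at 100 kb, which takes in the lone window, and 3 at 1 kb, which leaves only the windows of the promoter side together. The region's 6 windows were also 6 within 50 kb of the middle of the run, and became 10 within 500 kb and 31 within 5 Mb, because those stretches are longer. The share of the run covered, 20.3%, was the same with gaps up to 500 bp counted as covered and 43.1% with gaps up to 1 kb counted, an alternative chosen after seeing the data. With starts joined at 10 kb, 5 runs of 5 or more windows were at least as dense as that at Gapdh. With starts joined at 2 kb the number was 8. It was 9 by the most starts within 5 kb of a run, an alternative chosen after seeing the data. Without joining, 19 separate stretches of 5 kb held as many starts. Each of these counts includes the run at Gapdh itself. Shorter forms of the ERR response element gave 0 matches in the Gapdh entry, as the full form did. No paired analysis was possible because there is only 1 immunoprecipitate and 1 input; for the same reason no replicate could be left out. The depth of sequencing is not known here, and a stretch without a window cannot be told from one missed at the depth used.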
